A study of Saccharomyces cerevisiae with 48 samples.

Results

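Replication timing was compared between the *SSDDCS* strain and the *sml1∆* strain of budding yeast, both lacking the origins ARS816 and ARS818 on Chr VIII. The comparison rests on 22 of the 44 timepoint samples of the series, 11 from each strain, chosen by their strain labels. The *SSDDCS* strain carries galactose-inducible copies of 6 replication factors behind divergent GAL1-10 promoters, Sld7 with Cdc45 at *leu2*, Sld3-A with Dbf4-A at *his3* and Sld2 with Dpb11 at *trp1*, and has *SML1* replaced by a hygromycin resistance marker. Its partner has *SML1* replaced by URA3 and no extra copies. Both are W303 MATa strains with can1-100, ade2-1, trp1-1 and ura3-1 and the W303 alleles of *leu2*, *his3* and *rad5*, so neither is wild type apart from the origins. Cells grew in raffinose, were arrested in G1 with alpha factor, received galactose in the arrest and were released in galactose, and DNA was taken at 5, 10, 15, 20, 25, 30, 35, 40, 45, 50 and 60 min. For each 1-kb bin the files give the DNA copy number of a timepoint relative to that strain's own G1 DNA, scaled so that 1 stands for unreplicated and 2 for replicated DNA. Each strain gave 1 time course, so no test between strains was possible and no difference has a replicate check. The spread given beside a value is the SD over neighboring bins unless it is named otherwise. A corresponding pair of strains lacking ARS1008 and ARS1009 on Chr X in place of ARS816 and ARS818 comes from separate cultures, and its difference is given beside some values as that of the *ars1008∆ ars1009∆* background. Its 22 samples are in no way shared with the 22 described here.

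In budding yeast, origins are loaded with the MCM helicase in G1 and fire through S-phase in a reproducible order. Firing needs the kinases CDK and DDK, and Sld3, Sld2, Dpb11, Cdc45, Sld7 and the DDK subunit Dbf4 are present in amounts too low to serve all origins at once. Origins near centromeres are among the first to fire and origins near telomeres among the last. Sml1 inhibits ribonucleotide reductase, which makes the nucleotides for DNA synthesis.

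The origins below are shown as they stand in the R64 assembly of S288C, since they mark the ends of the range of responses described below. ARS818 is the annotated member of the deleted pair, ARS224, ARS802 and ARS712 belong to the origins most advanced with *SSDDCS*, and ARS1014, ARS1214 and ARS1 to the least advanced. Capitals mark exact matches, on either strand, to the ARS consensus sequence, the 11-base element to which the origin recognition complex binds.
ARS818 (chrVIII:392180-392395): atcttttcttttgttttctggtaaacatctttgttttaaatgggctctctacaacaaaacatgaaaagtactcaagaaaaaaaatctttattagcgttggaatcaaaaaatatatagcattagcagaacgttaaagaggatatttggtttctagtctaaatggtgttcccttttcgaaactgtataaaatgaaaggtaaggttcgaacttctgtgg
ARS224 (chrII:741681-741797): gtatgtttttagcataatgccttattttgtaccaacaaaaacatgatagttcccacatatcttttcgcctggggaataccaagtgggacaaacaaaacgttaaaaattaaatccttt
ARS802 (chrVIII:7702-7767): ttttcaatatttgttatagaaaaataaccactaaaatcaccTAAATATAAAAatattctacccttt
ARS712 (chrVII:241085-241353): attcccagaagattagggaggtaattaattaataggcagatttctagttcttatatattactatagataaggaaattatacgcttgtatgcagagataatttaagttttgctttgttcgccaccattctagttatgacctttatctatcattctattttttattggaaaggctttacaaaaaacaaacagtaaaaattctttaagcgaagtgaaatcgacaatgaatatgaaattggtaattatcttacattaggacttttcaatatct
ARS1014 (chrX:417195-417440): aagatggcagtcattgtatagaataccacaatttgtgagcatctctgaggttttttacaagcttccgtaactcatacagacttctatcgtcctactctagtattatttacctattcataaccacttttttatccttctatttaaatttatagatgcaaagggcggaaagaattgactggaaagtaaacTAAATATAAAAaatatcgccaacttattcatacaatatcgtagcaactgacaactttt
ARS1214 (chrXII:384534-384725): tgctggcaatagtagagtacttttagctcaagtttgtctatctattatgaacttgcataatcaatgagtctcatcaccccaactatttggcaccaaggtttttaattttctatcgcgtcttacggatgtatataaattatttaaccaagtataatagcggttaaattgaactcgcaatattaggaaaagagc
ARS1 (chrIV:462567-462622): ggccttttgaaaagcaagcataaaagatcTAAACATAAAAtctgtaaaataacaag
All are given 5′ to 3′ on the plus strand, and the match in ARS802, ARS1014 and ARS1 lies on the minus strand. Exact matches stood in 26.98% of the 300-base windows centered on the 63 most advanced of 312 origins and in 34.92% of those on the 63 least advanced. Over all 312 origins the share was 32.05%, against 1.89% of 300-base windows centered on the 1-kb bins. Many active origins hold only a near match, so a window without capitals is not a window without an origin.

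The *SSDDCS* culture was ahead of the *sml1∆* culture from 10 min on. The bulk value, the genome-wide DNA content relative to G1, was 1.25 with *SSDDCS* and 1.09 in *sml1∆* at 15 min, 1.49 with *SSDDCS* and 1.29 in *sml1∆* at 20 min, and 1.69 with *SSDDCS* and 1.53 in *sml1∆* at 25 min. The gap was widest at 20 min, at 0.2, and had narrowed to 0.01 by 50 min. At 20 min, 49.29% of bins had passed a ratio of 1.5 with *SSDDCS* and 5.91% in *sml1∆*. The spread over bins was also larger with *SSDDCS* at that time, with an SD of 0.147 against 0.118 in *sml1∆*, while from 25 min on it was larger in *sml1∆*. At 30 min the 5th to 95th percentiles ran from 1.55 to 2.07 with *SSDDCS* and from 1.39 to 2.06 in *sml1∆*. Ratios above 2 are relative values and cannot be read as copy numbers.

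Trep, the time at which a logistic curve fitted to the 11 ratios of a bin passes 1.5, had a genome-wide median of 20.7 min with *SSDDCS* and 25.25 min in *sml1∆*. The difference, *SSDDCS* minus *sml1∆*, was available for 11316 bins and had a median of -4.18 min, with quartiles at -6.93 and -1.74 min. Bins earlier with *SSDDCS* by over 2 min numbered 8187 (72.3% of bins), bins later by over 2 min 382 (3.38%), and the other 2747 lay within 2 min. The standard error of the difference in a single bin, from the scatter of the ratios about the curves, had a median of 1.405 min. The count of later bins was 186 with curves of free upper level and 182 among bins of low residual. Of the 382 later bins, 137 also exceeded 2 of their own standard errors, and of the 8187 earlier bins 7360 did. The advance was not uniform, since 968 bins were earlier by over 10 min. Trep was less spread out, with the 5th to 95th percentiles of Trep spanning 11.5 min with *SSDDCS* and 13.8 min in *sml1∆*.

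**Figure D1:**
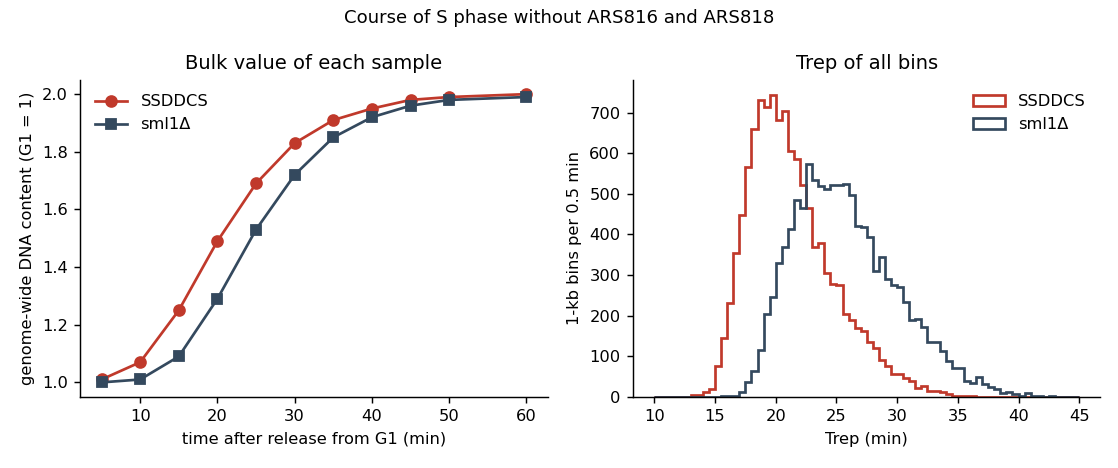
Left, bulk DNA content (G1 = 1) of each sample against minutes after release. Right, number of 1-kb bins per 0.5 min of Trep. *SSDDCS* is in red and *sml1∆* in dark blue. The *SSDDCS* values lie above those of *sml1∆* at every timepoint, and its Trep distribution is earlier (median 20.7 min with *SSDDCS* and 25.25 min in *sml1∆*) and narrower.

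The same difference was taken in the separate cultures of the *ars1008∆ ars1009∆* background. Across 11311 bins the differences of both backgrounds had a Pearson correlation of 0.476, and of 0.875 after smoothing over 11 bins, computed across bins that are not independent. The genome-wide median there was -5.505 min. Median Trep there was 16.06 min with *SSDDCS* and 22.26 min in *sml1∆*, against 20.7 and 25.25 min here. Cultures alike in *SSDDCS* status thus also differed in timing genome-wide, and the share of such shifts in the genome-wide difference was not tested. Bins earlier by over 2 min here were also earlier by over 2 min there in 85.58% of cases, against 77.97% of all bins. Of the bins later by over 2 min, 63 were shared, 16.54% of the 381 here that could be compared and 14.65% of the 430 there, where 3.80% of all bins were called later. The scatter of single bins about the smoothed difference had an SD of 2.82 min, so that a single bin carries little weight.

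Of the distance classes taken from centromeres, chromosome ends and origins, the bins beside centromeres were the least advanced by *SSDDCS*. In the 313 bins within 10 kb of a centromere, the median Trep was 19.6 min with *SSDDCS* and 20.75 min in *sml1∆*, a median difference of -1.13 min with quartiles at -2.40 and 0.274 min. Set against the genome-wide median of -4.18 min the sign turns, and these bins were 3.045 min later. There 31.95% of bins were earlier by over 2 min, against 72.3% of all bins. The advance grew with distance, with medians of -1.75 min at 10 to 20 kb, -1.82 min at 20 to 30 kb, -2.15 min at 30 to 50 kb, -3.40 min at 50 to 100 kb, -4.515 min at 100 to 200 kb and -5.03 min beyond 200 kb. The means of the 16 centromeres lay between 18.2 and 21.5 min with *SSDDCS* and between 19.6 and 22.8 min in *sml1∆*, and 15 of 16 were earlier with *SSDDCS*. *CEN6*, *CEN8* and *CEN16* lay after the genome-wide median with *SSDDCS*, whereas in *sml1∆* all 16 lay before it. *CEN12* (-2.31 ± 1.86 min, n = 20 bins), *CEN9* (-2.04 ± 2.01 min) and *CEN14* (-2.03 ± 2.51 min) were the only centromeres with means beyond 2 min. *CEN2* was the exception in direction, at 20.1 ± 1.63 min with *SSDDCS* and 20.0 ± 1.14 min in *sml1∆* (0.157 ± 1.65 min), well within its spread.

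At centromeres the ratio was higher with *SSDDCS* early and lower from 30 to 40 min. At 15 and 20 min the mean over the 313 bins was 1.24 and 1.55 with *SSDDCS*, against 1.12 and 1.44 in *sml1∆*. At 25 min the strains were level, at 1.785 ± 0.108 with *SSDDCS* and 1.80 ± 0.126 in *sml1∆*, and from 30 to 40 min the ratio was 1.91 to 1.98 with *SSDDCS* against 1.999 to 2.09 in *sml1∆*. These ratios include the bulk values, which were higher with *SSDDCS* by 0.16 at 15 min, 0.2 at 20 min and 0.11 at 30 min. Estimated bulk values rescaled the ratios at 30 min by 0.969 with *SSDDCS* and by 0.931 in *sml1∆*. The size of the gap at that time therefore depends on the bulk values. In Trep, relative to the rest of the same genome, centromeres ranked later with *SSDDCS*. The median bin within 10 kb of a centromere was later than 36.9% of all bins with *SSDDCS* and later than 10.5% in *sml1∆*.

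Chromosome ends behaved in the opposite way. In the 295 bins within 20 kb of an end, the median Trep was 19.6 min with *SSDDCS* and 26.3 min in *sml1∆*, a median difference of -7.04 min with quartiles at -10.2 and -4.13 min. The belt from 20 to 50 kb had 902 bins with medians of 19.4 min with *SSDDCS* and 26.1 min in *sml1∆* and a difference of -6.57 min. Of the bins within 20 kb of an end, 89.83% were earlier by over 2 min and 1.02% later. The median was -4.70 min at 50 to 100 kb and -3.77 min beyond 200 kb from any end. The median bin within 20 kb of an end was later than 36.3% of bins with *SSDDCS* and later than 59.95% in *sml1∆*, so that ends and centromeres stood at about the same rank with *SSDDCS*. At 20 min the mean ratio was 1.58 ± 0.125 with *SSDDCS* against 1.28 ± 0.113 in *sml1∆*, and at 30 min 1.89 ± 0.124 with *SSDDCS* against 1.67 ± 0.177 in *sml1∆*. From 40 min on the ends differed by less than 0.05.

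Of the 32 ends, 29 had measured bins within 20 kb. All 29 means were earlier with *SSDDCS*, 27 of them by over 2 min. The largest difference was at the right end of Chr VIII (16.3 ± 1.69 min with *SSDDCS*, 32.4 ± 2.66 min in *sml1∆*, difference -16.1 ± 4.32 min), but from 3 bins. With more bins, the left end of Chr I had 20.9 ± 1.24 min with *SSDDCS* and 31.6 ± 4.50 min in *sml1∆* (n = 15), and the left end of Chr VIII 19.65 ± 2.63 min with *SSDDCS* and 30.3 ± 2.17 min in *sml1∆* (n = 14). The right ends of Chr XV (-1.405 ± 0.509 min, n = 3) and Chr IX (-1.69 ± 2.17 min, n = 17) moved least. In *sml1∆* both lay before the median of 26.3 min, at 21.2 ± 1.48 min for Chr XV and 23.2 ± 2.35 min for Chr IX. With *SSDDCS* all ends lay between 16.3 and 22.35 min, and in *sml1∆* between 21.2 and 32.4 min.

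**Figure D2:**
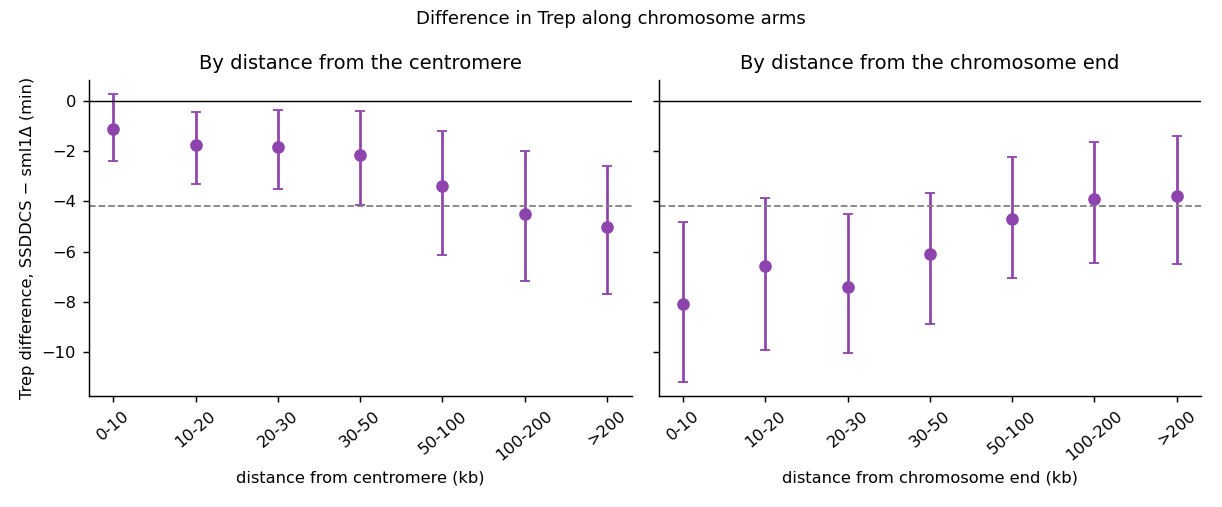
Difference in Trep (*SSDDCS* minus *sml1∆*, min) by distance from the centromere (left) and from the nearest chromosome end (right). Points are medians over bins, bars run from the 25th to the 75th percentile, and the dashed line is the genome-wide median of -4.18 min. The medians run from -1.13 min beside centromeres to -5.03 min beyond 200 kb from them, and from -8.09 min in the last 10 kb of chromosomes to -3.77 min beyond 200 kb from ends.

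Whole chromosomes differed less than the zones within them. The median difference ran from -2.78 min on Chr V and -2.84 min on Chr III to -5.0 min on Chr IV and -5.86 min on Chr XIV. On Chr XIV 85.66% of bins were earlier by over 2 min, and on Chr V 60.80%. With *SSDDCS* the chromosome medians lay between 19.5 min (Chr I) and 21.5 min (Chr VII), and in *sml1∆* between 22.85 min (Chr III) and 26.5 min (Chr IV).

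Origins that differ in timing in *sml1∆* lay closer together with *SSDDCS*. The annotation held 352 origins, of which 336 had a value within 2 kb, and these were split into quintiles by their Trep in the *sml1∆ ars1008∆ ars1009∆* strain, whose files do not enter the difference. ARS1008 and ARS1009, deleted in that strain, fall in its latest quintile for this reason. In the earliest quintile the median Trep was 17.7 min with *SSDDCS* and 20.0 min in *sml1∆*, a median difference of -2.25 min (95% interval of the median -2.511 to -1.845 min, n = 68), which is 1.926 min later than the genome-wide median. From quintile 2 on the median differences were -3.09, -4.94, -6.64 and -7.34 min (interval of the latest quintile -8.465 to -6.721 min, n = 67). The medians with *SSDDCS* were 18.1, 17.9, 18.3 and 19.25 min over the same quintiles, against 21.3, 23.7, 25.15 and 26.85 min in *sml1∆*. These intervals are order-statistic intervals over origins and cover no variation between cultures.

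**Figure D3:**
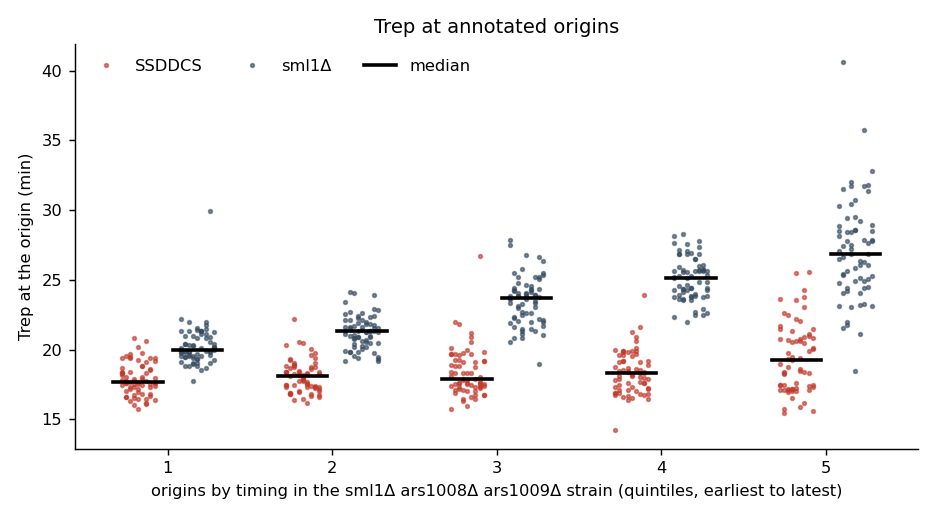
Trep (min) within 2 kb of each of 336 annotated origins, in quintiles from earliest to latest by timing in the *sml1∆ ars1008∆ ars1009∆* strain. Each point is an origin, with *SSDDCS* in red left of *sml1∆* in dark blue, and bars are medians. The *SSDDCS* medians run from 17.7 to 19.25 min and the *sml1∆* medians from 20.0 to 26.85 min.

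Among the 312 origins with at least 3 bins, 259 (83.0% of origins) were earlier with *SSDDCS* by over 2 min, 53 lay within 2 min and 0 were later by over 2 min. Of those with fewer bins, ARS1023 on Chr X had a difference of 3.75 min from 1 bin. Their SD of Trep was 1.63 min with *SSDDCS* and 2.80 min in *sml1∆*. The most advanced was ARS224 on Chr II, with 17.2 ± 1.06 min with *SSDDCS* and 28.5 ± 1.01 min in *sml1∆* (-11.3 ± 1.185 min, n = 4). Its ratio at 20 min was 1.725 ± 0.0634 with *SSDDCS* and 1.25 ± 0.0402 in *sml1∆*, and in *sml1∆* it reached 1.59 only at 30 min. ARS802 (-11.3 ± 2.96 min), the overlapping ARS601 and ARS602, which share their 4 bins (-11.0 ± 5.30 min), and ARS712 (-10.85 ± 1.08 min) came next. ARS425, ARS609, ARS1405, ARS222 and ARS318 followed, at differences between -10.75 and -10.1 min. Of these 10, 6 lie within 50 kb of an end, as do 36 of the 312.

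ARS712 was at 21.0 ± 1.165 min with *SSDDCS* against 31.8 ± 2.04 min in *sml1∆*, after the median of origins (18.1 min with *SSDDCS*) although strongly advanced. It lies 241 kb from an end. ARS425, 726 kb from an end, was at 16.9 ± 2.23 min with *SSDDCS* against 27.7 ± 3.31 min in *sml1∆*, and the advances over 10 min were not limited to chromosome ends. In the *ars1008∆ ars1009∆* background the same 10 origins differed by between -8.50 min (ARS712) and -17.6 min (ARS802).

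The 10 least advanced origins were ARS427, ARS818, ARS304, ARS1014, ARS308, ARS1214, ARS1, ARS432, ARS606 and ARS1016. Apart from ARS818, each was early in *sml1∆*, between 19.6 and 20.9 min, and each was at much the same time with *SSDDCS*, between 19.3 and 20.8 min. ARS427 (0.492 ± 5.17 min) and ARS818 (0.0794 ± 3.44 min) were the only ones of the 312 later with *SSDDCS*, both by less than their spread. ARS308 lies beside *CEN3*, and ARS1, ARS606, ARS1014 and ARS1016 lie between 12.8 and 19.1 kb from a centromere. ARS304, ARS427, ARS432 and ARS1214 lie between 84.01 and 709.6 kb from one. Of the 53 origins within 2 min, 22 lay within 30 kb of a centromere, as did 42 of the 312.

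Well-studied origins fell on both sides. ARS305, an early origin on Chr III, was at 16.05 ± 1.20 min with *SSDDCS* and 17.7 ± 1.06 min in *sml1∆*, and ARS607 on Chr VI at 16.85 ± 1.14 min with *SSDDCS* and 18.6 ± 0.740 min in *sml1∆*. ARS306 moved more, with 16.5 ± 1.22 min with *SSDDCS* and 21.4 ± 1.28 min in *sml1∆* (-4.94 ± 1.16 min), against -1.22 min in the *ars1008∆ ars1009∆* background. The late origin ARS603 was at 17.5 ± 1.07 min with *SSDDCS* and 25.4 ± 1.7 min in *sml1∆*. ARS1412 was at 17.0 ± 1.47 min with *SSDDCS* and 25.7 ± 1.31 min in *sml1∆*, and ARS522 at 16.7 ± 1.47 min with *SSDDCS* and 24.3 ± 0.553 min in *sml1∆*. These late origins lay within the spread of ARS607 with *SSDDCS* and well after it in *sml1∆*. Near the silent locus *HML*, the origins ARS302 and ARS303 share 3 bins at 21.45 ± 1.71 min with *SSDDCS* and 23.1 ± 2.56 min in *sml1∆* (-1.69 ± 4.15 min), and ARS320 beside them had -2.40 ± 3.675 min. On Chr X, ARS1009 was at 17.1 ± 0.8235 min with *SSDDCS* and 21.8 ± 1.18 min in *sml1∆*, and ARS1010 at 17.8 ± 1.07 min with *SSDDCS* and 25.15 ± 0.647 min in *sml1∆*.

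Not all late DNA was advanced alike. Of the quintile of bins latest in the *sml1∆ ars1008∆ ars1009∆* strain, the 348 within 50 kb of an end were at a median of 20.3 min with *SSDDCS* and 29.2 min in *sml1∆* (-8.82 min). The 1704 lying over 100 kb from any end were at 24.6 min with *SSDDCS* and 30.3 min in *sml1∆* (-5.58 min). Distance from an annotated origin separated them further in level, with 19.2 min with *SSDDCS* and 27.2 min in *sml1∆* within 5 kb of an origin, and 26.1 min with *SSDDCS* and 31.6 min in *sml1∆* over 20 kb away. Late DNA over 20 kb from origins thus kept its rank, later than 89.3% of bins with *SSDDCS* and later than 89.5% in *sml1∆*, while late DNA near ends stood at 45.4% with *SSDDCS* and 79.4% in *sml1∆*. The strain that set these quintiles lacks ARS1008 and ARS1009. The 10 bins within 5 kb of *IME2*, near these origins, were at 40.1 min there and 21.8 min in *sml1∆* here. The latest quintile thus includes DNA that was not late in *sml1∆* here. Of the latest quintile as a whole, 45.27% of bins were in the latest quintile with *SSDDCS* and 55.61% in *sml1∆*. For the earliest quintile these shares were 37.10% with *SSDDCS* and 63.83% in *sml1∆*, and with *SSDDCS* early rank was kept less often than late rank. Among the 595 bins of the earliest quintile within 30 kb of a centromere the difference was -1.44 min, and among the other 1669 it was -2.655 min.

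Contiguous advances were sought as runs of at least 5 kb in which the difference, smoothed over 11 bins, was more than 5 min below the genome-wide median. There were 30 such runs. Of these, 20 came within 50 kb of an end, where 10.66% of all bins lie, and 0 within 50 kb of a centromere, where 13.50% lie. Runs were placed by their nearest bin, so these shares of single bins are not the shares for runs. In the *ars1008∆ ars1009∆* background 29 of the 30 runs were also below that background's median, by any amount. There the smoothed difference was below that median in 50.15% of bins. The lowest smoothed value, -13.05 min, was in the run from 6001 to 17000 on the left end of Chr VIII, which holds ARS801, ARS802 and *ARN2*, a siderophore transporter. Its ratio at 30 min was 1.89 ± 0.126 with *SSDDCS* and 1.51 ± 0.06445 in *sml1∆*. The run from 16001 to 42000 on Chr XIV, with ARS1405 and *RPD3*, the histone deacetylase that restrains late origins, was at 19.2 ± 1.68 min with *SSDDCS* and 30.0 ± 2.37 min in *sml1∆*. The run from 14001 to 39000 on Chr VI was at 18.4 ± 1.45 min with *SSDDCS* and 28.9 ± 3.03 min in *sml1∆*, and that from 1498001 to 1523000 on Chr IV at 18.8 ± 2.32 min with *SSDDCS* and 28.8 ± 3.34 min in *sml1∆*. All 4 lay before the genome-wide median with *SSDDCS*.

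Of the 10 lowest runs, those on Chr XIV from 211001 and Chr XV from 695001 lay far from both ends. The first, 12 kb with no annotated origin, holds *URE2*, a regulator of nitrogen catabolite repression, and was at 23.9 ± 2.54 min with *SSDDCS* and 34.6 ± 3.06 min in *sml1∆* (-10.7 ± 4.36 min). At 20 min its ratio was 1.35 ± 0.0928 with *SSDDCS* and 1.21 ± 0.0751 in *sml1∆*, and at 35 min 1.885 ± 0.101 with *SSDDCS* and 1.51 ± 0.0947 in *sml1∆*. The run on Chr XV, 9 kb and also without an annotated origin, was at 22.85 ± 2.18 min with *SSDDCS* and 33.7 ± 3.41 min in *sml1∆*. Both lay after the genome-wide median with *SSDDCS*, as did the run from 892001 to 907000 on Chr XVI, 41.6 kb from an end, at 22.05 ± 2.24 min with *SSDDCS* and 32.9 ± 3.23 min in *sml1∆*. An internal run that holds an origin, ARS1011 on Chr X from 333001 to 339000, was singled out after its values were seen and lay at 17.1 ± 1.05 min with *SSDDCS* and 28.2 ± 4.34 min in *sml1∆*.

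Later replication with *SSDDCS* was rare, and was sought as runs in the difference smoothed over 11 bins. Neighboring smoothed values share most of their bins, so a run does not by itself show that later bins cluster. The smoothed difference was above 0 in 2.15% of bins, and 22 runs of at least 5 kb, 203 kb in all, had this sign throughout (14 with curves of free upper level). Of these runs, again placed by their nearest bin, 12 came within 50 kb of a centromere (13.50% of all single bins) and 1 within 50 kb of an end (10.66%). The unsmoothed mean of a run was above 0 in 19 of the 22 and below 0 in the other 3, the runs on Chr VII from 823001, Chr XIII from 202001 and Chr XVI from 541001. In the *ars1008∆ ars1009∆* background 11 of the 22 had a mean above 0, of which 10 also had one here, and there the smoothed difference was above 0 in 2.37% of bins. The mean exceeded its SD over bins only in the longest, 28 kb on Chr II from 266001 to 294000, at 25.8 ± 3.17 min with *SSDDCS* and 23.4 ± 3.02 min in *sml1∆* (2.44 ± 2.35 min, 24 of 28 bins later). The same bins averaged 0.516 ± 3.40 min in the *ars1008∆ ars1009∆* background. Further runs were 16 kb on Chr X from 555001 (1.39 ± 2.59 min), with *TOR1* and the clamp loader gene *RFC2*, 13 kb on Chr VII from 854001 (0.401 ± 1.94 min), with *RNR4*, and 12 kb on Chr XIII from 292001 (1.696 ± 3.61 min).

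The Chr II run holds the galactose cluster *GAL7*, *GAL10* and *GAL1*, whose enzymes convert galactose to glucose-1-phosphate, with *KAP104*, *FUR4* and *CHS3*. Its mean ratio was level at 20 min, at 1.33 ± 0.110 with *SSDDCS* and 1.31 ± 0.144 in *sml1∆*. At 30 min it was 1.64 ± 0.144 with *SSDDCS* and 1.86 ± 0.146 in *sml1∆*, and at 35 min 1.785 ± 0.103 with *SSDDCS* and 1.99 ± 0.138 in *sml1∆*. These bins were later than 83.6% of all bins with *SSDDCS* and later than 33.0% in *sml1∆*. The shape of the profile here was measured after the run had been seen. In the smoothed profile the latest point lay 12.7 kb to the right of *GAL1* with *SSDDCS* and 21.7 kb to the right in *sml1∆*, and Trep rose across the 20 bins at the cluster by 0.451 min per kb with *SSDDCS* and by 0.253 min per kb in *sml1∆*. To the left of the cluster, beside *CEN2*, the earliest smoothed values were 19.1 min with *SSDDCS* and 19.6 min in *sml1∆*. To the right the next minimum was at 19.6 min with *SSDDCS* and 23.9 min in *sml1∆*. Galactose was present in both cultures, and the *GAL1-10* promoter is present in extra copies only in the *SSDDCS* strain. The part of these copies in the result was not tested.

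**Figure D4:**
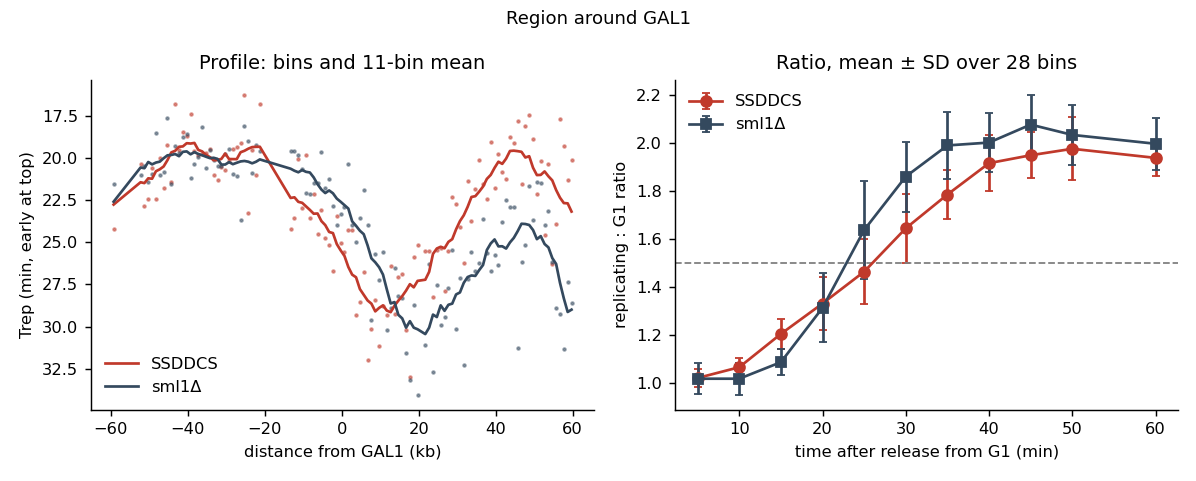
Left, Trep (min, early at the top) against distance from *GAL1* on Chr II in kb, as single 1-kb bins (points) and means over 11 bins (lines). Right, ratio to G1 against minutes after release over the 28 bins of the longest later run, as mean ± SD over bins, with the 1.5 level dashed. *SSDDCS* (red) is later than *sml1∆* (dark blue) on the left slope of the trough, whose latest point lies 12.7 kb right of *GAL1* with *SSDDCS* and 21.7 kb right in *sml1∆*, and earlier on the right slope.

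On Chr VIII the deletion of ARS816 and ARS818 leaves the stretch between ARS815 and ARS820 with fewer origins. All of ARS818 lies in a single bin, which had a ratio in 11 of 11 files of each strain, so the presence of the bin does not check the deletion. Over the 151 bins from ARS815 to ARS820 the median Trep was 25.45 min with *SSDDCS* and 29.0 min in *sml1∆* (-3.34 min), against 19.8 min with *SSDDCS* and 25.3 min in *sml1∆* (-5.47 min) in the 359 bins of the rest of the chromosome, so that the segment was 0.8385 min later than the genome-wide median of the difference. In the *ars1008∆ ars1009∆* background, which holds ARS816 and ARS818, the segment was also less advanced than the rest, at -5.44 min against -6.12 min. The part of the deletion in the difference of the segment was not tested. The flanking origins were advanced, ARS815 to 17.35 ± 1.08 min with *SSDDCS* against 20.5 ± 1.47 min in *sml1∆*, and ARS820 to 17.4 ± 1.15 min with *SSDDCS* against 20.45 ± 2.04 min in *sml1∆*. At ARS818 itself there was no difference beyond the spread (26.7 ± 3.66 min with *SSDDCS*, 26.6 ± 3.21 min in *sml1∆*). ARS822, further to the right and intact, was at 16.6 ± 0.622 min with *SSDDCS* and 24.1 ± 1.34 min in *sml1∆*.

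*NDT80*, which encodes the transcription factor for exit from meiotic pachytene, lies in this segment at chrVIII:356561-358444 on the plus strand. Trep over the 10 bins within 5 kb of its midpoint was 29.8 ± 2.43 min with *SSDDCS* and 33.7 ± 4.72 min in *sml1∆*, a difference of -3.94 ± 3.47 min. That advance is 0.241 min smaller than the genome-wide median, well within the spread over bins. In the *ars1008∆ ars1009∆* background, where ARS816 and ARS818 are present, the same bins were at 12.6 min with *SSDDCS* and 23.9 min in *sml1∆* (-11.3 ± 1.62 min). With the genome-wide median of each background subtracted, the advance at *NDT80* was smaller by 6.075 min in the background without these origins. The spread of this contrast, from the combined SD over bins, ran from 2.249 to 9.901 min. The backgrounds are separate cultures, and the part of the deletion in the contrast was not tested.

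The *NDT80* ratios did not follow a smooth curve with *SSDDCS*. They were 1.24 ± 0.0636 at 15 min and 1.39 ± 0.0478 at 20 min, against 1.08 ± 0.0439 at 15 min and 1.22 ± 0.0715 at 20 min in *sml1∆*. From 20 to 25 min the *SSDDCS* ratio stood still, at 1.38 ± 0.0679, and was 1.465 ± 0.111 at 30 min, against 1.35 ± 0.110 at 25 min and 1.39 ± 0.118 at 30 min in *sml1∆*. The early lead of *SSDDCS*, 0.167 at 20 min, was thus 0.0372 at 25 min and stayed below 0.08 at every later timepoint. ARS818 had a similar course, with a lead of 0.156 at 20 min and ratios at 30 min of 1.53 ± 0.0953 with *SSDDCS* and 1.64 ± 0.0656 in *sml1∆*. Every ratio includes the bulk value of its sample. The bulk value was higher with *SSDDCS* by 0.2 at 20 min, 0.16 at 25 min and 0.11 at 30 min. At 20 min the leads at *NDT80* and ARS818 were thus smaller than that of the whole culture.

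**Figure D5:**
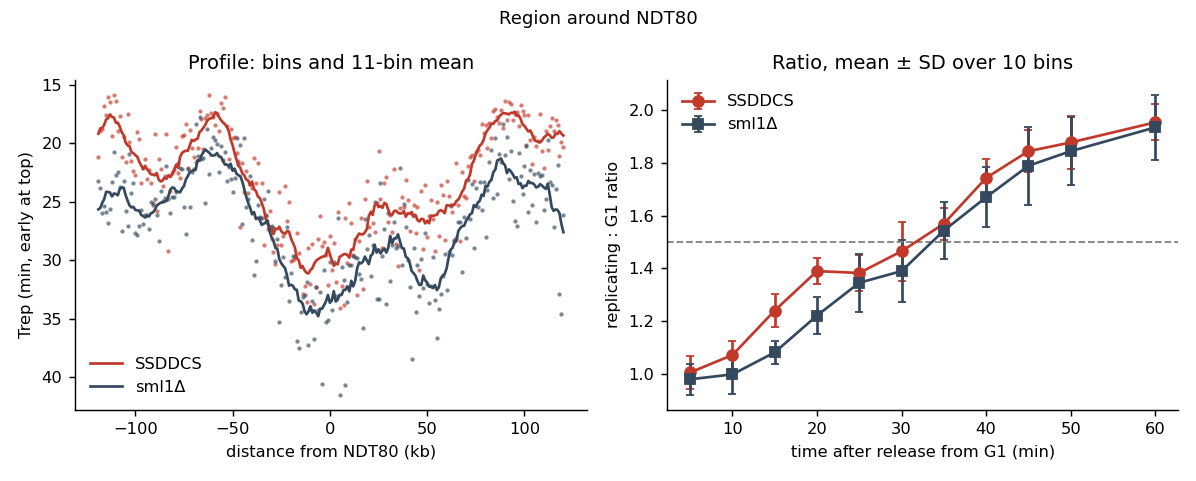
Left, Trep (min, early at the top) against distance from *NDT80* on Chr VIII in kb, as single bins (points) and means over 11 bins (lines). Right, ratio to G1 against minutes after release over the 10 bins within 5 kb of *NDT80*, as mean ± SD over bins. The bins around *NDT80* lie at 29.8 min with *SSDDCS* (red) and 33.7 min in *sml1∆* (dark blue), and the lead of *SSDDCS* in the ratio, 0.167 at 20 min, is 0.0372 at 25 min. The lead in bulk value is 0.2 at 20 min and 0.16 at 25 min.

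Genes were placed by the bins within 2 kb of their midpoint, which gave values for 6239 genes. Of these, 77.8% were earlier with *SSDDCS* by over 2 min and 0.657% later by over 2 min, with a median difference of -4.18 min. The core histones, whose genes lie as divergent pairs and share bins within a pair, were the list with the least advance by median. Of the 8 histone genes, 1 was earlier by over 2 min, and their median was 0.0906 min. They were early in *sml1∆*, at a median of 19.6 min against 25.4 min for all genes, and *HTA2*, *HTB2*, *HHF1* and *HHT1* lie near *CEN2*. The median of the galactose genes was 0.0497 min. *HTB1* was at 16.8 ± 1.02 min with *SSDDCS* and 19.0 ± 0.886 min in *sml1∆*, while *HHF2* was at 24.3 ± 2.32 min with *SSDDCS* and 23.2 ± 1.17 min in *sml1∆* (1.15 ± 2.94 min). Of 20 meiotic genes, 15 were earlier by over 2 min and 0 later, with a median of -3.36 min. *DIT1*, for spore wall synthesis, was at 17.8 ± 0.749 min with *SSDDCS* and 27.6 ± 0.437 min in *sml1∆*, *DMC1*, the meiotic recombinase, at 16.55 ± 1.23 min with *SSDDCS* and 24.5 ± 0.3755 min in *sml1∆*, and *MEK1*, a meiotic checkpoint kinase, at 24.7 ± 1.62 min with *SSDDCS* and 24.5 ± 2.996 min in *sml1∆*. *IME2*, the meiotic kinase gene on Chr X near ARS1008 and ARS1009, which neither strain here lacks, was at 18.6 ± 1.57 min with *SSDDCS* and 22.2 ± 0.189 min in *sml1∆*.

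The galactose genes were split. *GAL7* (3.34 ± 0.439 min) and *GAL10* (2.56 ± 2.12 min) were later by over 2 min and *GAL1* had 1.945 ± 1.89 min, with *GAL3* at 0.0497 ± 1.38 min. *GAL2*, the permease (-5.41 ± 2.84 min), *GAL4*, the activator (-4.89 ± 0.345 min) and *GAL80*, its repressor (-3.20 ± 2.01 min) were earlier. Of 21 replisome and nucleotide-supply genes, 17 were earlier by over 2 min, where 77.8% of all genes were. Among them were *CDC6* (16.7 ± 1.16 min with *SSDDCS*, 24.9 ± 3.52 min in *sml1∆*), which loads MCM onto origins, and *POL3* (26.8 ± 2.45 min with *SSDDCS*, 34.8 ± 4.33 min in *sml1∆*), the catalytic subunit of polymerase delta. *SML1*, also counted among the 17, is replaced by a marker in both strains, so its value comes from bins that reach beyond the gene. *RNR2* and *RNR4*, which encode subunits of ribonucleotide reductase, had differences of 1.27 ± 0.603 min and 0.0627 ± 0.914 min. Of 9 cyclins, 4 were earlier by over 2 min, and the S-phase cyclin *CLB5* was at 18.8 ± 1.56 min with *SSDDCS* and 20.6 ± 1.28 min in *sml1∆*. The 4 thiamine genes, of subtelomeric regions, had means between -11.96 and -3.23 min, from 1 or 2 bins each. *THI11*, the least of them, was at -3.23 ± 9.87 min, with its 2 bins in opposite directions. Ribosomal protein genes followed the genome, with 115 of 132 earlier by over 2 min and a median of -4.275 min, and tRNA genes less so, with 184 of 275 and -2.68 min.

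The native loci of the over-expressed factors differed, with *DPB11* at -8.33 ± 2.89 min, *SLD2* at -6.84 ± 1.71 min, *CDC45* at -4.95 ± 1.59 min and *SLD7* at -3.455 ± 0.979 min, and with *DBF4* (-0.574 ± 0.658 min) and *SLD3* (-0.110 ± 3.29 min) within 2 min. Reads of these genes come from the native locus and from the inserted copy in the *SSDDCS* strain, so that their bins mix both positions. At the insertion loci, *HIS3* was at 23.7 ± 1.78 min with *SSDDCS* and 30.9 ± 1.02 min in *sml1∆*, *TRP1* at 19.1 ± 1.77 min with *SSDDCS* and 19.6 ± 0.641 min in *sml1∆*, and *LEU2* at 24.0 ± 1.53 min with *SSDDCS* and 22.7 ± 1.195 min in *sml1∆*. The part of the inserted copies in these values was not tested.

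A single bin in the ribosomal DNA on Chr XII, 459001 to 460000, holds ARS1200-1 and had the largest difference of the genome, with Trep of 15.5 min with *SSDDCS* and 40.6 min in *sml1∆*. Its ratio was higher with *SSDDCS* at 11 of 11 timepoints, with a lowest, median and highest value of 1.07, 1.86 and 3.19 with *SSDDCS* and of 0.799, 1.28 and 1.95 in *sml1∆*. The bin lies in a repeat whose copies share reads, and which copies the reads come from cannot be told apart.

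In the smoothed profiles, 233 minima with *SSDDCS* and 214 in *sml1∆* were at least 1 min deep, and their number depended on the processing. Of the *SSDDCS* minima 52 had no *sml1∆* minimum within 10 kb, and 39 of these 52 lay within 5 kb of an annotated origin, as did 196 of all 233. In the *SSDDCS* strain of the *ars1008∆ ars1009∆* background 47 of the 52 had a minimum within 10 kb, as did 223 of all 233. Of the *sml1∆* minima 32 had no *SSDDCS* minimum within 10 kb, and 16 of these 32 lay within 5 kb of an annotated origin, as did 166 of all 214. In the *sml1∆* strain of the *ars1008∆ ars1009∆* background 18 of the 32 had a minimum within 10 kb, as did 185 of all 214. Minima lay at a median of 17.99 min with *SSDDCS* and 22.8 min in *sml1∆*, and maxima, where forks meet, at 23.2 min with *SSDDCS* and 29.1 min in *sml1∆*. The slope of the smoothed profile, taken over 5 kb, had a median of 0.193 min per kb with *SSDDCS* and 0.1825 min per kb in *sml1∆*.

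Base composition moved with the difference. Over quintiles of bins by GC content, from a median of 34.5% to one of 42.4%, the median difference was -3.62, -3.91, -4.03, -4.52 and -4.99 min from low to high, with a Pearson correlation of -0.130 across bins. The part of base composition in the differences was not tested. Bins within 10 kb of centromeres had a median GC content of 37.0% and bins within 20 kb of ends one of 37.2%.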

How the data were processed

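Genomic DNA of synchronized cultures was sequenced (Repli-Seq). The submitters' processing notes name sacCer3 (R64), Bowtie2 2.3.4, SAMtools 1.7.2 and bedtools 2.26.0. The authors deposited, per 1-kb bin, the ratio of uniquely mapped reads of a timepoint to those of the G1 sample of its strain, scaled so that its mean over bins is a bulk value fitted to flow cytometry. That bulk value is the other deposited ratio. An error in it moves all bins of a sample alike. Without read counts in the files used, depth is unknown and no counting interval was computed.

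A logistic curve between 1 and 2 was fitted by least squares to bins with at least 6 timepoints (Python 3.11.15, numpy 2.4.6, pandas 2.3.3, scipy 1.17.1), with Trep at 1.5. The fit was tested on simulated data. Profiles were smoothed over 11 bins. Origins, centromeres, genes and printed sequences are those of RefSeq R64 (S288C), whereas the strains are W303. Origins and genes took bins within 2 kb, *NDT80* within 5 kb. Named are the 10 longest later runs and the 10 lowest advanced runs, of which the text gives the extremes, the 10 most and 10 least advanced origins with at least 3 bins, origins known in the field, centromeres and ends by their extremes, and 2 to 4 examples of each gene list. The members and lists were chosen with earlier results of these data known. ARS816, ARS817, ARS821, ARS501 and ARS1007.5 had no entry under these names among the annotated origins, so no values are given under them. The alternatives were other fitted curves, estimated bulk values, centring, an added G1 point, left-out timepoints, a residual limit, and other windows, smoothing and thresholds.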

Additional observations from a re-analysis of the deposited data

Results flagged for a closer look

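The later run on Chr IV from 863001 to 872000, with *UME6*, the repressor of early meiotic genes, had opposite differences in the separate backgrounds. It was later with *SSDDCS* here, at 28.4 ± 1.34 min with *SSDDCS* and 26.3 ± 2.44 min in *sml1∆* (2.065 ± 2.66 min, n = 9 bins), and earlier by -3.59 ± 2.73 min in the *ars1008∆ ars1009∆* background. The run was selected for its sign here, each difference is from 1 time course per strain, and the contrast between backgrounds was not tested.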

How the results depend on the processing

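No paired analysis was possible because the strains share only replicate 1 and each has 1 time course. A median counted as moved when it left the 95% order-statistic interval of its median over chromosomes, ends, origins or bins, a span or a mean at a locus when it moved by over 1 SD over chromosomes or bins, and a count when it changed by over 1.5 times. Causes were not tested unless stated. Of 246 alternative values, 216 stayed within these limits, 24 moved and 6 turned sign. Subtracting the genome-wide median adds the same offset to every bin, and gave differences of 3.045 min at centromeres, 1.926 min at the earliest origins, 0.2407 min at *NDT80* and 0.8385 min from ARS815 to ARS820, all turned in sign, with -2.858 and -2.386 min at ends and in the belt, -3.162 min at the latest origins, 3512 earlier bins, 3340 later bins and 162 later runs. With estimated bulk values the genome-wide median was -5.001 min, the span difference -4.726 min, the earliest and latest origins -1.726 and -8.515 min and ARS815 to ARS820 -4.63 min. The earliest origins were -2.526 min with a free upper asymptote, -2.633 min with the first crossing of 1.5 and -2.713 min in the 8426 bins of low residual. Later bins numbered 186 with a free upper asymptote and 182 in bins of low residual. With a threshold of 5 min in place of 2 min for the difference in Trep, 4760 bins were earlier and 41 later. Later runs numbered 14 with a free upper asymptote and 6 at 10 kb or more. The difference of 19 profile minima was unstable, at 34 with a free upper asymptote, 30 in bins of low residual, -28 with estimated bulk values and -195 with smoothing over 5 bins. Leaving out a timepoint gave -4.303 to -4.061 min genome-wide, -1.231 to -0.9426 min at centromeres, -7.273 to -6.802 min and -6.747 to -6.473 min at ends and in the belt, -2.388 to -1.862 and -8.035 to -6.878 min at the earliest and latest origins, -4.438 to -3.291 min at *NDT80*, -3.622 to -2.909 min from ARS815 to ARS820, 5.73 to 6.652 min for the *NDT80* contrast between backgrounds, -2.733 to -2.045 min in span, 7975 to 8317 earlier bins, 338 to 564 later bins, 18 to 26 later runs and 3 to 25 in the difference of minima, which was 3 without 30 min and 4 without 35 min.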
